A study of Mus musculus with 4 samples.

Results

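The epidermal keratins are described here through 10 genes of mouse skin, taken by symbol from a table of 24441 genes that lists 55 keratin genes in all. They were chosen as a family of known cell layers, with earlier results of these data known. Krt5, Krt14 and Krt15 are of the basal layer, and Krt1, Krt10 and Krt2 of the suprabasal layers. Keratinocytes switch on Krt6a, Krt6b, Krt16 and Krt17 after wounding. RNA came from whole skin of 2 GSDMD KO (GSDMD-/-) mice and 2 wild-type (WT) mice, all labelled as female C57BL/6 animals with an age of 8 weeks. All 4 mice, WT included, had bleomycin (BLM) injected under the skin every other day over 28 days, which gives a fibrosis model of scleroderma, and no saline-treated skin was analysed here. The KO line came from Cas9 editing of C57BL/6 embryos, so the edit was not limited to keratinocytes. The comparison asks how the skin transcriptome of mice without gasdermin D, the pore-forming protein of pyroptosis, differs from that of WT mice after BLM.

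Keratins are the intermediate filament proteins of epithelial cells, and each filament is built from pairs of a type I (acidic) and a type II (basic) keratin. Basal keratinocytes, which divide and sit on the basement membrane, make the pair Krt5 and Krt14. When they leave the basal layer and begin to cornify, they replace it with the pair Krt1 and Krt10. Krt6a, Krt6b, Krt16 and Krt17 are low in resting epidermis between hair follicles, are made in parts of the follicle, and are induced at wound edges and in inflamed epidermis, where they are used as signs of keratinocyte activation.

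The 10 genes lie in 2 clusters of the mouse genome build mm9, all on the minus strand. The type II genes are on chromosome 15, from Krt6b (101506453 to 101510720) and Krt6a (101520358 to 101524736) through Krt5 (101537500 to 101543322) and Krt2 (101641119 to 101648600) to Krt1 (101675856 to 101681217), and each has 9 exons. The type I genes are on chromosome 11, from Krt10 (99246568 to 99250678) through Krt15 (99993072 to 99997263), Krt14 (100064475 to 100068824) and Krt16 (100107405 to 100110216) to Krt17 (100117528 to 100122343), with 8 exons each. Another annotated gene, Gm11940, overlaps the span of Krt10, and the sources used here do not say if counting was by strand. In the deposited table the row of the hair keratin Krt85 spans Krt6b and part of Krt6a. It held 0.176 and 0.0530 FPKM in the WT mice against 16.7 and 1.99 FPKM in the KO mice.

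Close relatedness limits how well some of these genes can be measured apart. The coding sequences of Krt6a and Krt6b differed at 37 of 1662 aligned bases (97.8% identity), and 18.6% of all 150-base windows of the Krt6a transcript also occur in Krt6b (the read length is not given in the sources used here). Of the windows of 75 bases, 40.6% of those of Krt6a and 39.1% of those of Krt6b occurred in at least 1 other gene, which was the other Krt6 gene, Krt5 or Gm5414. The next closest pair was Krt14 and Krt16, with 86.3% identity over their coding bases, and none of the 150-base windows of either occurred in another protein-coding transcript. At 75 bases, 5.91% of the windows of Krt14 occurred in Krt16 and 6.19% of those of Krt16 in Krt14, and 5.20% of those of Krt5 occurred in Krt6a, Krt6b or Gm5414. The values of Krt6a and Krt6b are therefore uncertain as far as the authors' counting had to split shared fragments. The most divergent gap-free stretch of 90 coding bases is shown because reads over it can tell the genes apart. It covers coding bases 787 to 876 in exon 4 of each gene, on chromosome 15 of mm9 from 101522915 to 101523004 in Krt6a and from 101508734 to 101508823 in Krt6b. The 12 bases that differ are in capitals.
Krt6a: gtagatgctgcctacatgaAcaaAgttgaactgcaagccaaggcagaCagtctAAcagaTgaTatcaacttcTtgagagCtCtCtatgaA
Krt6b: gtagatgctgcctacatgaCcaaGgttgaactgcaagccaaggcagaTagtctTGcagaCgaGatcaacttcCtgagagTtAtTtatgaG

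Promoters from RefSeq (build GRCm38.p6) were matched for 4 of the 10 genes, Krt5, Krt14, Krt10 and Krt2, and 3 are shown as the 100 bases before the start site, since Krt5 and Krt14 had nearly the same pattern over the libraries and Krt10 had another. The 250 bases before the start were searched on both strands for TATAAA (the core promoter box that binds TBP), TGANTCA (the AP-1 motif) and GCCNNNGGC (an AP-2 motif). TATAAA, in capitals, was found once, 26 bases before the start of Krt10, and 12.4% of all 32851 promoters hold it. TGANTCA and GCCNNNGGC, held by 6.75% and 13.7% of all promoters, were in none of the 4 windows. The windows are chr15:101712906-101713005, chr11:100206031-100206130 and chr11:99389365-99389464, all on the minus strand.
Krt5: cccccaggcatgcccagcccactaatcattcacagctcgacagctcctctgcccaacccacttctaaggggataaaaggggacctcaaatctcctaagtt
Krt14: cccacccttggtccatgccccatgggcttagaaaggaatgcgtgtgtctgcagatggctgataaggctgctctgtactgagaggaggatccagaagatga
Krt10: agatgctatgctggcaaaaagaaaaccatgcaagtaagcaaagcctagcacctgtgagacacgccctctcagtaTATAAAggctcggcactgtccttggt

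Levels are FPKM, fragments scaled to transcript length and to the mapped fragments of the library, as the authors deposited them. From the steps in the values of low genes, 1 fragment on a transcript of 1 kb was estimated to be worth 0.0570 to 0.0786 FPKM, so that Krt5 rested on about 23900 to 51900 fragments per library. Gsdmd itself had 14.0 and 18.2 FPKM in the WT mice against 3.53 and 2.26 FPKM in the KO mice. Even this edited gene, with -2.14 as its log2 fold change (KO minus WT), was not called. Limma with Benjamini-Hochberg adjustment gave it an adjusted p of 0.248, the value that Krt5 and Krt14 also had. Genes not called in this fit were therefore not shown to be unchanged. The libraries differed in their levels of cell type markers, and the KO libraries stood apart in different ways. In KO replicate 1, all 21 hair keratins on a list were at their highest, with a summed level of 377 FPKM against 1.73 to 15.03 FPKM in the other libraries. In KO replicate 2, all 6 fibroblast markers, all 5 endothelial, all 6 macrophage and all 5 adipocyte markers were at their lowest. Fibroblast markers summed to 24.9 FPKM there against 180.1 to 422 FPKM elsewhere, and adipocyte markers to 208 FPKM against 1753 to 4798 FPKM. KO replicate 2 was also the only library with Y-linked transcripts (4 of 4 genes above 0, 1.78 FPKM in sum), although the mice are labelled female. Macrophage markers were lower in both KO libraries, with sums of 621 and 775 FPKM in the WT mice against 337 and 28.7 FPKM in the KO mice, and 5 of 6 had both KO libraries below both WT libraries, beside 20.5% of all tested genes. None was called by limma here, and 4 had an unadjusted p under 0.05, all lower in KO mice, beside 6.22% of all tested genes. The study, which tested counts with DESeq2, reported Cd68 and Csf1r as down-regulated in KO mice. Skeletal muscle markers were abundant in every library and summed to 19954 and 18908 FPKM in the WT mice against 12235 and 12493 FPKM in the KO mice. Of these 5 markers, 4 had both KO libraries below both WT libraries (20.5% of all tested genes), and 2 had an unadjusted p under 0.05, both lower in KO mice (6.22% of all tested genes). FPKM is relative to the whole library, and the part of these marker differences in the keratin values was not tested. All 8 keratinocyte markers were detected in all libraries. In whole tissue, fewer cells of a type and less RNA per cell cannot be told apart. Fold changes of members, class medians and the ratios of suprabasal and wound-induced over basal keratins are given below also without single libraries. No such values are given for genes of the other lists or for the other ratios, some of which rest on 1 KO library.

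**Figure D1:**
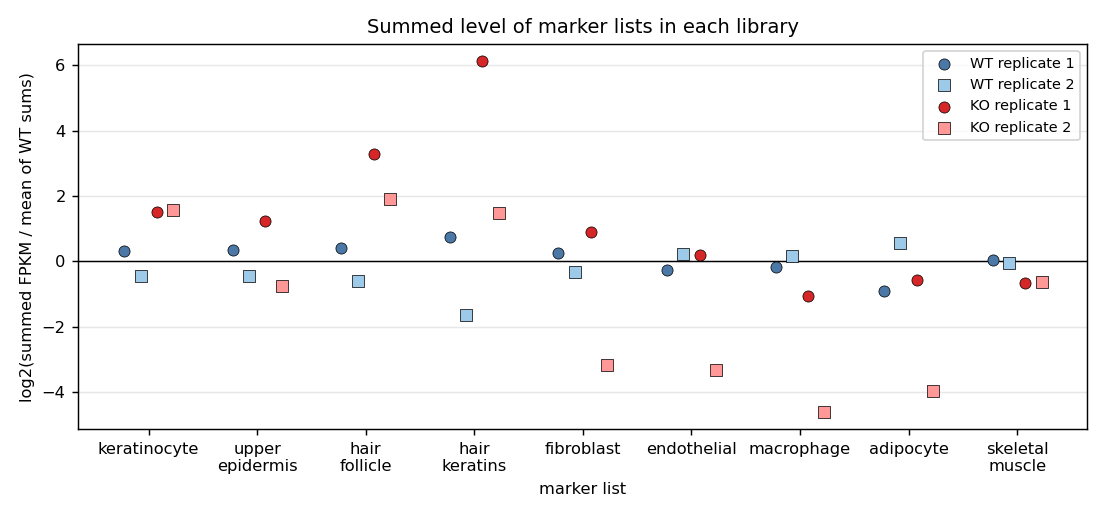
Summed FPKM of each marker list in each library, as log2 of its ratio to the mean of the WT sums (y axis), for 9 lists (x axis). Points are single libraries. Keratinocyte markers lie above 0 in both KO libraries, hair keratins are high in KO replicate 1, fibroblast, endothelial and adipocyte markers are low in KO replicate 2, and macrophage and skeletal muscle markers lie below 0 in both KO libraries.

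The basal pair Krt5 and Krt14 had the highest mean levels of the family in both genotypes and the smallest standard errors of the log2 fold change. Krt14, the type I keratin of basal cells, had 1293 and 1214 FPKM in the WT mice against 2689 and 2735 FPKM in the KO mice, always given in the order of replicates 1 and 2. Krt5, its type II partner, had 764 and 765 FPKM in the WT mice against 1728 and 1664 FPKM in the KO mice. For both genes the 2 KO libraries lay close together and well above the 2 WT libraries, which were also close together. The mean of Krt14 was 1254 ± 55.5 FPKM in WT and 2712 ± 33.1 FPKM in the KO group (SD, n = 2 each), a ratio of 2.16. Krt5 had means of 764.7 ± 0.923 and 1696 ± 44.9 FPKM (SD, n = 2 each), a ratio of 2.22. On the log2(FPKM + 1) scale, the log2 fold change (KO minus WT) was 1.11 for Krt14 (standard error 0.25, 95% interval 0.48 to 1.75) and 1.15 for Krt5 (standard error 0.24, 95% interval 0.53 to 1.76). Neither passed the threshold of the study, an adjusted p under 0.05 with an absolute log2 fold change above 1 (adjusted p = 0.248 for both by limma with Benjamini-Hochberg adjustment over 13027 genes). This limma fit on log2(FPKM + 1) called 0% of all tested genes, and their median log2 fold change was 0.11. The study used the threshold with DESeq2 on counts and reported differentially expressed genes, so the 0% is not the outcome of the study.

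The ratio of Krt5 to Krt14 within a library hardly varied, at 0.591 and 0.630 in WT and 0.642 and 0.608 in KO libraries. Leaving out either KO library left their fold changes near 1.1, between 1.10 and 1.13 for Krt14 and between 1.12 and 1.18 for Krt5. Without KO replicate 1 the adjusted p fell to 0.0404 for Krt14 and 0.0423 for Krt5 by limma, but in that fit 1920 of 12618 genes were called, and it rests on a single KO mouse.

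Krt15, a basal keratin that also marks the stem cells of the hair follicle bulge, did not keep this proportion. It had 128 and 118 FPKM in WT, 225 FPKM in KO replicate 1 and 670.3 FPKM in KO replicate 2. Both KO libraries were above both WT libraries, but KO replicate 2 was 2.98 times KO replicate 1, so the spread within the KO group was far wider than for Krt5 or Krt14. Its log2 fold change was 1.65 (standard error 0.54, 95% interval 0.27 to 3.03, adjusted p = 0.262 by limma). Leaving out KO replicate 2 gave 0.86, and leaving out KO replicate 1 gave 2.43 (adjusted p = 0.00329 by limma in that fit). Per unit of Krt14, Krt15 stood at 0.0991 and 0.0975 in WT, 0.0838 in KO replicate 1 and 0.245 in KO replicate 2. KO replicate 1 was thus close to the WT libraries in this ratio, and KO replicate 2 alone stood out. The ratios named beside suprabasal or wound-induced over basal keratins were chosen after the values had been seen.

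**Figure D2:**
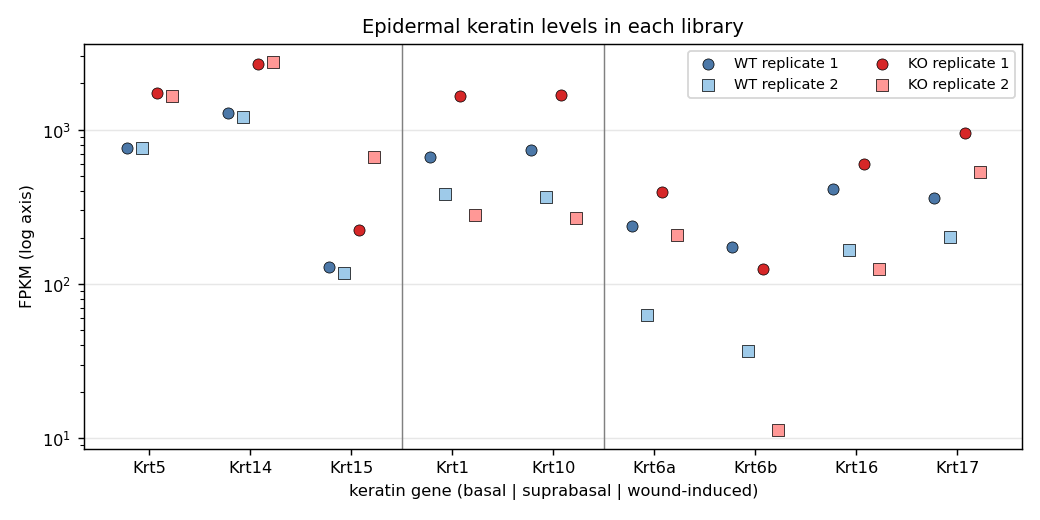
FPKM on a log axis (y) of 9 epidermal keratins (x), with 1 point per library. Grey lines separate basal, suprabasal and wound-induced keratins. Krt2, at or near 0 in every library, is not drawn. KO replicates lie together for Krt5 and Krt14 and far apart for Krt1, Krt10, Krt6b and Krt16.

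The suprabasal pair Krt1 and Krt10 had its highest level in KO replicate 1 and its lowest in KO replicate 2. Krt10, the type I keratin of cornifying cells, had 745 and 364 FPKM in WT, 1670 FPKM in KO replicate 1 and 266 FPKM in KO replicate 2. Krt1, its type II partner, had 668 and 381 FPKM in WT, 1665 FPKM in KO replicate 1 and 279.9 FPKM in KO replicate 2. Both WT libraries thus lay between the 2 KO libraries for both genes. The SD of the KO group was as large as its mean, 968 ± 992 FPKM for Krt10 and 973 ± 980 FPKM for Krt1 (SD, n = 2). Log2 fold changes were 0.36 for Krt10 (standard error 0.92, 95% interval -1.99 to 2.70) and 0.44 for Krt1 (standard error 0.87, 95% interval -1.80 to 2.67), with adjusted p = 0.844 and 0.799 by limma. These intervals include both a loss and a gain of several fold, and equal levels were not shown. Krt1 moved from 1.72 without KO replicate 2 to -0.85 without KO replicate 1, and Krt10 from 1.68 to -0.97.

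As in the basal layer, the filament partners kept step: Krt1 over Krt10 was 0.897 and 1.05 in WT and 0.997 and 1.05 in KO libraries. Type II members in sum made up 0.628 and 0.604 of the type I members in WT, 0.637 in KO replicate 1 and 0.499 in KO replicate 2. The balance between the layers varied far more than the balance within a pair. Krt1 and Krt10 together, over Krt5 and Krt14 together, stood at 0.687 and 0.376 in WT, 0.755 in KO replicate 1 and 0.124 in KO replicate 2. The mean log2 ratio was -0.98 ± 0.61 in WT and -1.71 ± 1.84 in KO mice (SD, n = 2 each), a difference of -0.73 with p = 1 by an exact two-sided permutation test. With 2 against 2 libraries this test cannot go below 0.333. Without KO replicate 2 the difference was 0.57, and without KO replicate 1 it was -2.03.

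Krt2, which follows Krt1 and Krt10 in the upper layers of thick mouse epidermis such as that of ear, tail and sole, was all but absent. It had 0.0662 and 0.0540 FPKM in WT, 0.0563 FPKM in KO replicate 1 and was listed at 0 in KO replicate 2. At the estimated depth these values correspond to about 3.04, 2.01, 2.02 and 0 fragments, so no fold change is given and a difference was not detectable. Krt2 was the single member that did not pass the filter of 1 FPKM in 2 libraries and was not tested.

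Other markers of the upper epidermis were also at their highest in KO replicate 1, in 12 of 12 genes of a list, but they did not all share the low value of KO replicate 2. Lor, the main protein of the cornified envelope, had 1450.0 and 810 FPKM in WT, 2844 FPKM in KO replicate 1 and 155 FPKM in KO replicate 2. Like Krt1 and Krt10, it was lowest in KO replicate 2. Casp14, a protease of cornification, had 62.8 and 22.8 FPKM in the WT mice against 113 and 82.7 FPKM in the KO mice, and the desmosomal cadherin Dsg1a had 17.4 and 5.31 FPKM in the WT mice against 39.8 and 26.2 FPKM in the KO mice. For this pair both KO libraries were above both WT libraries, an order that 3 of the 12 genes had, beside 35.3% of all tested genes. The median log2 fold change over the list was 0.81, and 4 of its 12 genes were lowest in KO replicate 2 while 8 were lowest in WT replicate 2. No gene of it was called, and 2 had an unadjusted p under 0.05, both higher in KO mice (10.9% of all tested genes).

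Wound-induced keratins varied widely between mice of the same genotype, and all 4 were lower in replicate 2 than in replicate 1 of both genotypes. Lower values in WT replicate 2 than in WT replicate 1 were found in 8 of the 9 tested members. The shares of all tested genes with these orders were not computed, so they are not read as traits of the keratins. Krt17, which is also made in the hair follicle, had 360.3 and 201 FPKM in the WT mice against 953 and 529.8 FPKM in the KO mice, so that the groups did not overlap. Its log2 fold change was 1.40 (standard error 0.44, 95% interval 0.28 to 2.51, adjusted p = 0.254 by limma). Krt16, its relative in activated epidermis, had 410.4 and 165 FPKM in WT, 602 FPKM in KO replicate 1 and 125 FPKM in KO replicate 2. As with Krt10, the KO libraries enclosed the WT libraries, and the log2 fold change was 0.08 (standard error 0.85, 95% interval -2.09 to 2.24, adjusted p = 0.966 by limma). Leaving out KO replicate 2 gave 1.20 and leaving out KO replicate 1 gave -1.05, so no direction holds for Krt16. Upper-quartile and median-ratio scaling of the libraries gave -0.03 and -0.06 for Krt16, and moved the median of all tested genes from 0.11 to 0.02 and -0.01.

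Krt6a had 239 and 63.4 FPKM in the WT mice against 392 and 206 FPKM in the KO mice. WT replicate 1 lay between the KO libraries, and the log2 fold change was 1.20 (standard error 0.70, 95% interval -0.58 to 2.98, adjusted p = 0.401 by limma). It ran from 0.25 when WT replicate 2 was left out to 2.15 when WT replicate 1 was left out. Krt6b, its near-identical neighbour, had 173 and 36.7 FPKM in WT, 126 FPKM in KO replicate 1 and 11.2 FPKM in KO replicate 2. It was the only one of the 9 tested members with a negative log2 fold change, -1.04 (standard error 1.28, 95% interval -4.30 to 2.23, adjusted p = 0.668 by limma). That sign rested on single libraries, since leaving out KO replicate 2 gave 0.65, leaving out WT replicate 1 gave 0.06 and leaving out KO replicate 1 gave -2.72, where the adjusted p was 0.0486 by limma.

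The proportions of wound-induced keratins of the same type to each other differed between libraries. The basal and suprabasal pairs above are instead ratios of type II to type I. The like ratio here, Krt6a and Krt6b over Krt16 and Krt17 in sum, was 0.534 and 0.273 in WT and 0.333 and 0.332 in KO libraries. Krt6a over Krt6b was 1.39 and 1.73 in WT, 3.12 in KO replicate 1 and 18.4 in KO replicate 2. Both KO libraries were above both WT libraries, with a difference of 2.29 in the mean log2 ratio (exact permutation p = 0.333, the smallest possible). How fragments that match both genes were split bears on this ratio. Krt16 over Krt17 was 1.14 and 0.820 in WT, 0.632 in KO replicate 1 and 0.236 in KO replicate 2, a difference of -1.32 in the mean log2 ratio (exact permutation p = 0.333). The 4 wound-induced keratins in sum, over Krt5 and Krt14, stood at 0.575 and 0.236 in WT and 0.469 and 0.198 in KO libraries. For this sum the groups overlapped, and the difference of -0.27 in the mean log2 ratio had p = 0.667 by the exact permutation test. That difference was -0.89 without KO replicate 1, 0.35 without KO replicate 2 and 0.37 without WT replicate 1, so no direction holds for it. Over the 11 ratios computed, every Benjamini-Hochberg adjusted exact permutation p was 1.

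**Figure D3:**
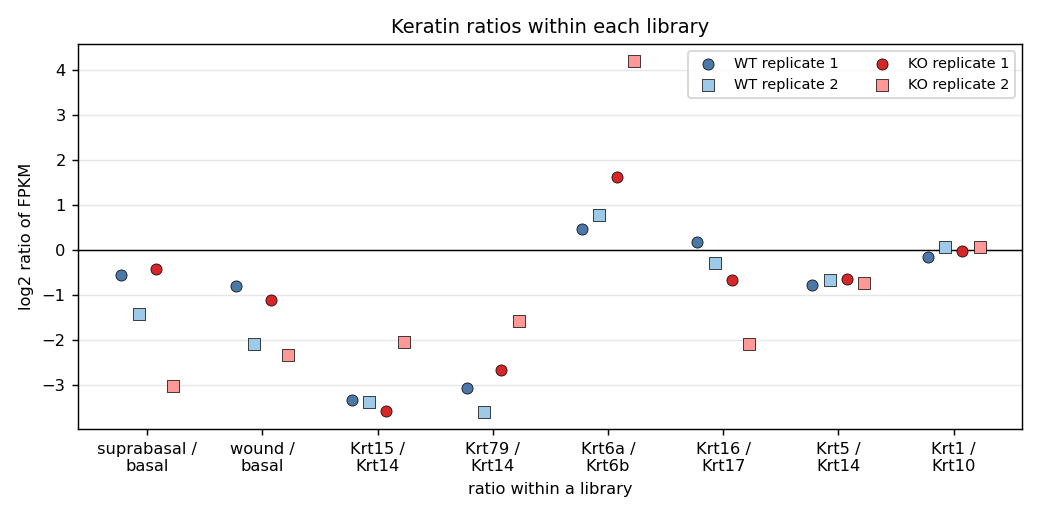
Log2 ratio of FPKM within each library (y axis) for 8 keratin ratios (x axis), with 1 point per library. Krt5 over Krt14 and Krt1 over Krt10 are nearly constant, while suprabasal over basal keratins runs from -3.01 in KO replicate 2 to -0.41 in KO replicate 1 and Krt6a over Krt6b from 0.47 to 4.20.

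Over the family, 8 of the 9 tested members had a positive log2 fold change, where 58.6% of all tested genes did. Members and lists were chosen with earlier results of these data known, so such counts are descriptions only. An unadjusted p under 0.05 was reached by 4 members, all higher in KO mice (Krt5, Krt14, Krt15 and Krt17), beside 17.1% of all tested genes in either direction and 10.9% in that direction. The same 4 members had both KO libraries above both WT libraries, and 35.3% of all tested genes had this order. Of the 9 tested members, 0 passed the threshold. Class medians of the log2 fold change were 1.15 for basal, 0.40 for the 2 tested suprabasal and 0.64 for wound-induced keratins. Leaving out 1 library moved the suprabasal median to between -0.91 (KO replicate 1 left out) and 1.70 (KO replicate 2 left out), and the wound-induced median to between -0.16 (WT replicate 2 left out) and 1.43 (KO replicate 2 left out), so no direction holds for either class. As a share of all FPKM, the 10 keratins held 1.06% and 0.716% in WT and 2.24% and 1.44% in KO libraries.

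Keratinocyte markers that are not keratins had higher values in both KO libraries, as Krt5 and Krt14 did, and their part in the values of the keratins was not tested. All 8 had both KO libraries above both WT libraries, an order found in 35.3% of all tested genes, and their sum was 678 and 399 FPKM in the WT mice against 1536 and 1601 FPKM in the KO mice. Col17a1, a hemidesmosome protein of basal cells, had 48.5 and 50.3 FPKM in the WT mice against 104 and 108 FPKM in the KO mice, a ratio of means of 2.15. P-cadherin (Cdh3), also a basal cell protein, had 5.30 and 5.29 FPKM in the WT mice against 11.6 and 11.3 FPKM in the KO mice, a ratio of 2.16. Itgb4, another hemidesmosome protein of basal cells, had 16.2 and 18.5 FPKM in the WT mice against 28.7 and 21.8 FPKM in the KO mice, a ratio of 1.46. Epcam, an adhesion protein of the hair follicle and sebaceous gland in skin, had 24.8 and 11.2 FPKM in the WT mice against 68.6 and 101 FPKM in the KO mice, a ratio of 4.73. Trp63, the transcription factor of the basal layer, had 17.0 and 11.3 FPKM in the WT mice against 32.7 and 56.8 FPKM in the KO mice, a ratio of 3.17. None of the 8 was called, and 7 had an unadjusted p under 0.05, all higher in KO mice (10.9% of all tested genes). The median log2 fold change of the list was 1.48.

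Another list held proteins that anchor keratin filaments. Of 9 such genes that were tested, 6 had both KO libraries above both WT libraries (35.3% of all tested genes), 5 had an unadjusted p under 0.05 in that direction (10.9% of all tested genes), and none was called. Desmoplakin (Dsp), which ties filaments to desmosomes, had 45.6 and 21.6 FPKM in the WT mice against 105 and 81.9 FPKM in the KO mice. Periplakin (Ppl) had 24.0 and 14.7 FPKM in the WT mice against 48.0 and 60.6 FPKM in the KO mice. Plectin (Plec), a linker found in muscle as well as epidermis, had 56.4 and 68.1 FPKM in the WT mice against 48.8 and 24.9 FPKM in the KO mice. The KO libraries of Plec were both below its WT libraries, an order found in 20.5% of all tested genes. Jup, plakoglobin of desmosomes, had 63.0 and 42.7 FPKM in the WT mice against 111 and 57.5 FPKM in the KO mice, and Tchp, a keratin-binding protein, had 3.63 and 4.81 FPKM in the WT mice against 5.16 and 3.62 FPKM in the KO mice. For both of these the groups overlapped.

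Genes of keratinocyte activation other than keratins had no common direction. Of 12 on the list, 6 had a positive log2 fold change, and the median was -0.05. S100a8 and S100a9, calgranulins made by activated keratinocytes and by neutrophils, were the 2 with an unadjusted p under 0.05, both lower in KO mice (6.22% of all tested genes were in that direction). S100a8 had 440.5 and 287 FPKM in the WT mice against 151 and 107 FPKM in the KO mice. Sprr1b, a cornified envelope precursor induced in stressed epidermis, had 161 and 38.8 FPKM in the WT mice against 235 and 29.8 FPKM in the KO mice. Its order over the libraries was that of Krt16 in the KO group, with KO replicate 1 highest and KO replicate 2 lowest.

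Among 19 other epithelial keratins 12 were tested. Both KO libraries were above both WT libraries for 6 of them (35.3% of all tested genes) and below both for 1, Krt18 (20.5% of all tested genes). The largest log2 fold changes among them belonged to Krt79 and Krt75, keratins of the hair follicle. Krt79, of the upper follicle and the sebaceous duct, had 156 and 101 FPKM in the WT mice against 427 and 919 FPKM in the KO mice. Its log2 fold change was 2.31, with a standard error of 0.46 and adjusted p = 0.248 (limma). Krt75, of the companion layer around the inner root sheath, had 3.59 and 2.10 FPKM in the WT mice against 14.2 and 23.4 FPKM in the KO mice. Here the log2 fold change was 2.35, with a standard error of 0.36 and adjusted p = 0.248 (limma). Like Krt15, both were highest in KO replicate 2. Krt79 per unit of Krt14 was 0.121 and 0.0833 in WT and 0.159 and 0.336 in KO libraries. In the same way as Krt1 and Krt10, Krt77, a suprabasal keratin of sweat ducts and of mouse epidermis, had 134 and 34.4 FPKM in WT, 253 FPKM in KO replicate 1 and 23.4 FPKM in KO replicate 2. Keratins of simple epithelia were low, with 2.61 and 2.47 FPKM of Krt18 in the WT mice against 2.44 and 1.501 FPKM in the KO mice. Of the 12 tested genes none was called, and 3 had an unadjusted p under 0.05, all higher in KO mice (10.9% of all tested genes).

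Of 10 hair follicle markers, 8 were highest in KO replicate 1 and 2 in KO replicate 2. Of the 7 that were tested, 6 had both KO libraries above both WT libraries (35.3% of all tested genes), 4 had an unadjusted p under 0.05, all higher in KO mice (10.9% of all tested genes), and none was called. Tchh, trichohyalin of the inner root sheath, had 1.31 and 0.552 FPKM in WT, 38.2 FPKM in KO replicate 1 and 1.52 FPKM in KO replicate 2. Lhx2, a transcription factor of follicle stem cells, had 1.48 and 0.872 FPKM in the WT mice against 7.99 and 10.02 FPKM in the KO mice, and Sox21 had 2.93 and 1.69 FPKM in the WT mice against 8.07 and 14.9 FPKM in the KO mice. Tchh thus went with the hair keratins, which were highest in KO replicate 1, whereas Lhx2 and Sox21 were highest in KO replicate 2, as Krt15 and Krt79 were. The part of hair follicle tissue in the values of Krt14, Krt15, Krt17 and Krt6a, which follicles also make, was not tested.

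**Figure D4:**
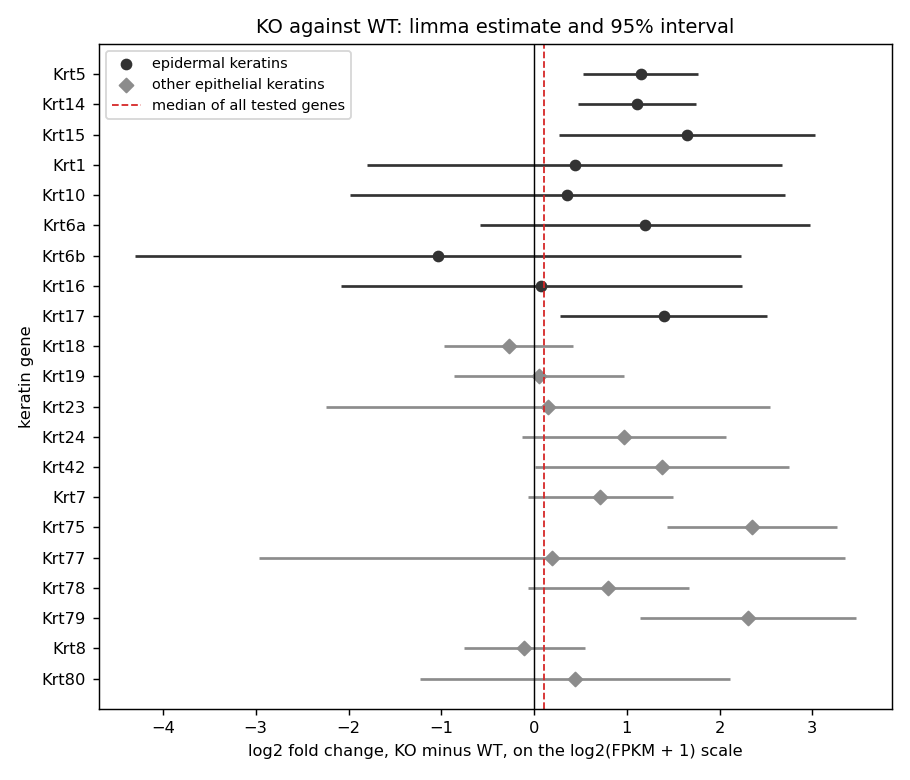
Log2 fold change (KO minus WT) on the log2(FPKM + 1) scale (x axis) with its 95% interval from limma for the 9 tested epidermal keratins and 12 other epithelial keratins (y axis). Intervals of Krt5, Krt14, Krt15, Krt17, Krt42, Krt75 and Krt79 lie above 0, while those of Krt1, Krt10, Krt16 and Krt6b cover 0 widely. The dashed line is the median of all tested genes, 0.11.

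The genes whose pattern was most like that of Krt14, Krt10 and Krt16 were found from values centred on their mean over the 4 libraries, by the root mean square distance on the log2(FPKM + 1) scale. For Krt14 the nearest 5 of all tested genes were Plxnb1, Unc5b, Slc39a10, Krt5 and Ankle1, at distances of 0.02 to 0.05. Krt5 was the only keratin among them. The added 1 FPKM compresses the differences of low genes, so that Ankle1, with 0.614 and 0.570 FPKM in the WT mice against 2.19 and 2.48 FPKM in the KO mice, was near Krt14 on this scale although its FPKM differed by a larger factor. Krt10 was nearest to Krt1, followed by Dkkl1, Cdsn, Hal and Asprv1, at 0.09 to 0.13. Cdsn encodes corneodesmosin, Hal histidase and Asprv1 a protease that processes filaggrin, all of the upper epidermis. Krt16 was nearest to Krt23, Dkkl1, Teddm3, Dnase1l3 and Hal, at 0.12 to 0.15, and stood at rank 20 of the genes near Krt10. Krt6b was at rank 1194 and Krt6a at rank 1285 of those near Krt16, so Krt16 had a pattern closer to the suprabasal keratins than to the other wound-induced members. With 4 libraries these distances are descriptions only.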

How the data were processed

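RNA was sequenced from BLM-treated skin of 2 WT and 2 GSDMD KO mice, grouped by their labels. The authors aligned reads to mm9 (submitters' notes name HISAT2 2.0.1 and StringTie 2.0.6, and the methods also a read counter), and the annotation is not given in the sources used here. The deposited table is named as counts but holds FPKM, with 99.993% of values above 0 not whole (tolerance 1e-09), so the count test of the study was not run. Values were transformed to log2(FPKM + 1), which understates changes of low genes. The 13027 genes with at least 1 FPKM in 2 libraries were fitted with limma 3.58.1 in R 4.3.3 (genotype only, trended empirical Bayes, Benjamini-Hochberg adjustment), checked on simulated data. Ratios were compared by exact two-sided permutation tests over libraries. Depth was estimated as a step size in 3439 genes with 1 annotated transcript of at least 2 kb and is approximate. Replicates are labelled as separate samples, and p-values cover only the spread between such samples. In limma the variance of each gene was drawn toward a trend over all tested genes, so its p-values also rest on other genes. Gene models were those of GENCODE on mm9, compared with Biopython 1.88 in Python 3.11.15. The members and lists were chosen with earlier results of these data known. Named genes were all 10 members, Gsdmd, genes of a described list, and the 5 genes nearest to Krt14, Krt10 and Krt16. Alternatives were other pseudocounts, filters and scalings, no trend, a replicate block and leaving out each library.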

Additional observations from a re-analysis of the deposited data

How the results depend on the processing

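With 2 mice a group, single libraries decided most values, and the cause was not tested. Over the fits that left out 1 library each, the number of genes called ran from 0 to 1920 (31 without KO replicate 2), the number of epidermal keratins called from 0 to 4, and the number with an unadjusted p under 0.05 from 0 (without WT replicate 2, where 493 of 12816 genes had one) to 8 (without KO replicate 2, where 1540 of 12702 genes had one), beside 4 with all libraries (2230 of 13027 genes). In each of these fits the lone library of a group is assumed to vary like the others. Log2 fold changes ran from -0.85 to 1.72 for Krt1, from -0.97 to 1.68 for Krt10 (-0.16 without WT replicate 2), from -2.72 to 0.65 for Krt6b (0.06 without WT replicate 1) and from -1.05 to 1.20 for Krt16 (-0.58 without WT replicate 2). The basal median ran from 1.10 to 1.16, the suprabasal median from -0.91 to 1.70, the wound-induced median from -0.16 to 1.43, the log2 ratio of suprabasal over basal keratins from -2.03 to 0.57, and that of wound-induced over basal keratins from -0.91 to 0.37 (0.35 without KO replicate 2). Krt5, Krt14, Krt15, Krt17 and Krt6a stayed positive in all 4 fits, with ranges of 0.86 to 2.43 for Krt15, 0.97 to 1.82 for Krt17 and 0.25 to 2.15 for Krt6a.

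Upper-quartile scaling gave -0.026 for Krt16 and 1.045 for the basal median, and median-ratio scaling gave -0.060 and 1.01. Median-ratio scaling moved the median of all tested genes from 0.11 to -0.01. Without a filter, 0 epidermal keratins had an unadjusted p under 0.05, beside 2350 of 24441 genes. Deviations of same-numbered libraries had a correlation of -0.20, and no source pairs them. With the replicate number as a block, 0 genes were called and 6 epidermal keratins had an unadjusted p under 0.05 (1999 of 13027 genes), and it changed no call. The crossed pairing, added after seeing the data, gave 0 genes called and 3 such keratins (3052 genes). The count tests planned as alternatives were not run, since the table holds FPKM.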
